A study of Mus musculus with 24 samples.

Results

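The Serpinb9 family is a group of mouse clade B serpins, proteins that stay inside the cell and trap serine proteases. The 8 genes named for it here were Serpinb9, Serpinb9b, Serpinb9d, Serpinb9e, Serpinb9f, Serpinb9g, Serpinb6b and Serpinb1a. A gene entered where the array annotation gave a probe set that symbol alone; of several such probe sets the one brightest on average was kept. By that rule 6 of the 8 genes were measured, each by 1 probe set, among 19938 genes in all. Serpinb9f and Serpinb9g were on the array only in 3 probe sets that the annotation assigns jointly to Serpinb9d, Serpinb9e, Serpinb9f and Serpinb9g. The genes were chosen with results of the leukaemia comparisons in view, where Serpinb9d stood among the largest differences, so the levels and differences in leukaemia are a description. Counts of these genes past limma's threshold are given there only to place them among all genes, and are no test of them.

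Expression was read on 24 arrays in 6 groups of bone marrow samples. Heterozygous leukaemias were tumour-bearing marrow of 7 Sca1-BCR/ABLp190+Pax5+/- mice, which carry the p190 form of the BCR/ABL fusion oncogene under the Sca1 promoter and 1 functional copy of Pax5, a transcription factor that B cells need to keep their identity. BCR/ABL leukaemias were marrow of 2 Sca1-BCR/ABLp190 mice with both Pax5 copies, and B220+ cells were marrow B cells of 5 wild-type mice that carry that surface antigen of the B lineage. Heterozygous precursors (n = 3), BCR/ABL precursors (n = 3) and wild-type precursors (n = 4) were pro-B and pre-B cells of marrow from Sca1-BCR/ABLp190+Pax5+/-, Sca1-BCR/ABLp190 and wild-type mice, those with the oncogene being described as preleukemic. All mice were kept in a conventional facility with exposure to common pathogens, and the labels give no age. For wild-type precursors 4 samples are labelled where the design text mentions 3 mice, and all 4 were used. The labels call the replicates biological. No sort is named for the leukaemic marrow.

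Granule proteases are the means by which NK cells and cytotoxic T cells kill. Perforin opens the target membrane, granzymes enter and cleave substrates, and a serpin in the cytosol that meets a granzyme offers it a bait loop and is cut once, after which the pair stays locked together. Serpinb9, also called Spi6, blocks granzyme B in the mouse and protects cytotoxic lymphocytes, dendritic cells and some tumours from it. Serpinb6b blocks mouse granzyme A, Serpinb9b blocks granzyme M, and Serpinb1a blocks the neutrophil proteases elastase, cathepsin G and proteinase 3. The genes lie in 1 stretch of chromosome 13 with 17 clade B serpin genes, in the order Serpinb1a, Serpinb6b, Serpinb9, Serpinb9b, Serpinb9d, Serpinb9e, Serpinb9f and Serpinb9g with other serpins among them.

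Serpinb9d and Serpinb9e are close copies, and the bases before their start sites are shown because these copies differed so unequally between the groups. Each sequence holds the 250 bases before the annotated start in the RefSeq table of assembly GRCm38.p6, and 7 of the 8 genes had one, Serpinb1a being the other. Capitals in the first pair mark bases that differ or have no partner when these are aligned end to end, 25 in each. Serpinb9d lies on the plus strand at chr13:33192705-33192954 and Serpinb9e on the plus strand at chr13:33249358-33249607. The Serpinb9 sequence, plus strand at chr13:33004291-33004540, is shown because its gene is the granzyme B inhibitor, and its capitals mark the interferon regulatory factor motif described next.
Serpinb9d: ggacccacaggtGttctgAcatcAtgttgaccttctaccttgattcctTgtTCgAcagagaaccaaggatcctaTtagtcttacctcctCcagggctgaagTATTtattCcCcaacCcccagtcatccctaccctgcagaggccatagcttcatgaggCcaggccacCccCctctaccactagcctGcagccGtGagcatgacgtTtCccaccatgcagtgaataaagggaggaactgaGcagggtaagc
Serpinb9e: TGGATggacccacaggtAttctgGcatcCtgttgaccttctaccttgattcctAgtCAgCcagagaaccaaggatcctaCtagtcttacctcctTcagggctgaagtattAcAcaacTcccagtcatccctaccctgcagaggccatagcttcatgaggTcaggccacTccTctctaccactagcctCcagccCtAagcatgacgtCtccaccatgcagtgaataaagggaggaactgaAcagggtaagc
Serpinb9: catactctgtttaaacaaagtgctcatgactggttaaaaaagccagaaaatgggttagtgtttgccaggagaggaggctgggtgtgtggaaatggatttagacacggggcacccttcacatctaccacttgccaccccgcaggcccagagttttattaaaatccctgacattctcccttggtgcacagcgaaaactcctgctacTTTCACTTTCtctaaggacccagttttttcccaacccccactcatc

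The Serpinb9d and Serpinb9e sequences were identical at 225 of 255 aligned columns, or 88.2%, with 20 mismatches and 10 gapped columns. Serpinb9d matched Serpinb9g at 87.8% and Serpinb9f at 80.4%, whereas it matched Serpinb9 at 44.2% and Serpinb6b at 41.8%. Motifs for 3 kinds of transcription factor were searched on both strands. The interferon regulatory factor motif, GAAA and GAAA with any 2 bases between them, was found in 1 of the 7 sequences, that of Serpinb9, on the minus strand with its first base 46 bases before the start, and in 2.98% of 32851 such sequences over all genes. The NF-kB type motif, GGG and CC with any 5 bases between them, was found for Serpinb9b, Serpinb9d, Serpinb9e and Serpinb9g, against 45.8% of all sequences. The STAT motif, TTC and GAA with any 3 bases between them, was found in 0 of the 7 and in 7.02% of all sequences. A match is only a match of letters.

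Gene values over all arrays had a 5th percentile of 4.80, a median of 6.97 and a 95th percentile of 10.79 on the log2 scale, and no detection calls come with them. Correlations between arrays lay between 0.906 and 0.995, and 0 pairs were identical. The labelled cell types were checked against 9 B lineage markers, whose mean level per array was 11.30 to 11.74 in B220+ cells and 11.56 to 11.73 over the precursors. It was 8.40 to 10.78 in heterozygous leukaemias and 7.71 to 9.41 in BCR/ABL leukaemias. Pax5 itself had 8.37 to 12.06 in heterozygous leukaemias, 8.10 and 8.39 in BCR/ABL leukaemias and 12.20 to 12.44 in B220+ cells. It had 11.58 to 12.00 in heterozygous precursors, 11.93 to 12.19 in BCR/ABL precursors and 11.81 to 12.02 in wild-type precursors. Whether its probe set covers the disrupted part of the gene is unknown here. Xist exceeded the mean of 3 Y-linked genes on 5 of 5 B220+ and 4 of 4 wild-type precursor arrays, on 0 of 3 BCR/ABL precursors and on some arrays of each other group (3 of 7 heterozygous leukaemias, 1 of 2 BCR/ABL leukaemias, 1 of 3 heterozygous precursors).

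Serpinb9d, a Serpinb9 paralog, was higher in every heterozygous leukaemia than on any other array, and near the bottom of the array's range everywhere else. Its log2 level in heterozygous leukaemias was 6.63 at the lowest, 10.52 at the median and 11.50 at the highest. The BCR/ABL leukaemias had 4.78 and 4.65, and the B220+ cells 4.59, 4.61, 4.68, 4.63 and 4.65. The heterozygous leukaemias overlapped with neither. Array 4, the lowest of them, still stood above both, but under the median gene value of 6.97. The precursors gave no such level: 4.62, 4.65 and 4.59 in heterozygous precursors, 4.61, 4.74 and 4.64 in BCR/ABL precursors, and 4.59, 4.66, 4.53 and 4.61 in wild-type precursors. All 17 arrays outside the heterozygous leukaemias thus lay under the 5th percentile of gene values. The log2 difference of heterozygous leukaemias was 5.40 ± 0.67 (SE, limma) against B220+ cells and 5.32 ± 0.92 against BCR/ABL leukaemias. No fold is given, since the arrays may not resolve levels this low and the size of the differences then depends on the array's floor. Leaving out any 1 array kept them between 5.16 and 5.97 and between 5.08 and 5.88. Without array 1 of the BCR/ABL leukaemias the difference between the leukaemias was 5.38 and fell outside limma's threshold. In unsorted marrow, more cells that express a gene and more RNA per cell cannot be told apart, here and for each gene below.

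**Figure D1:**
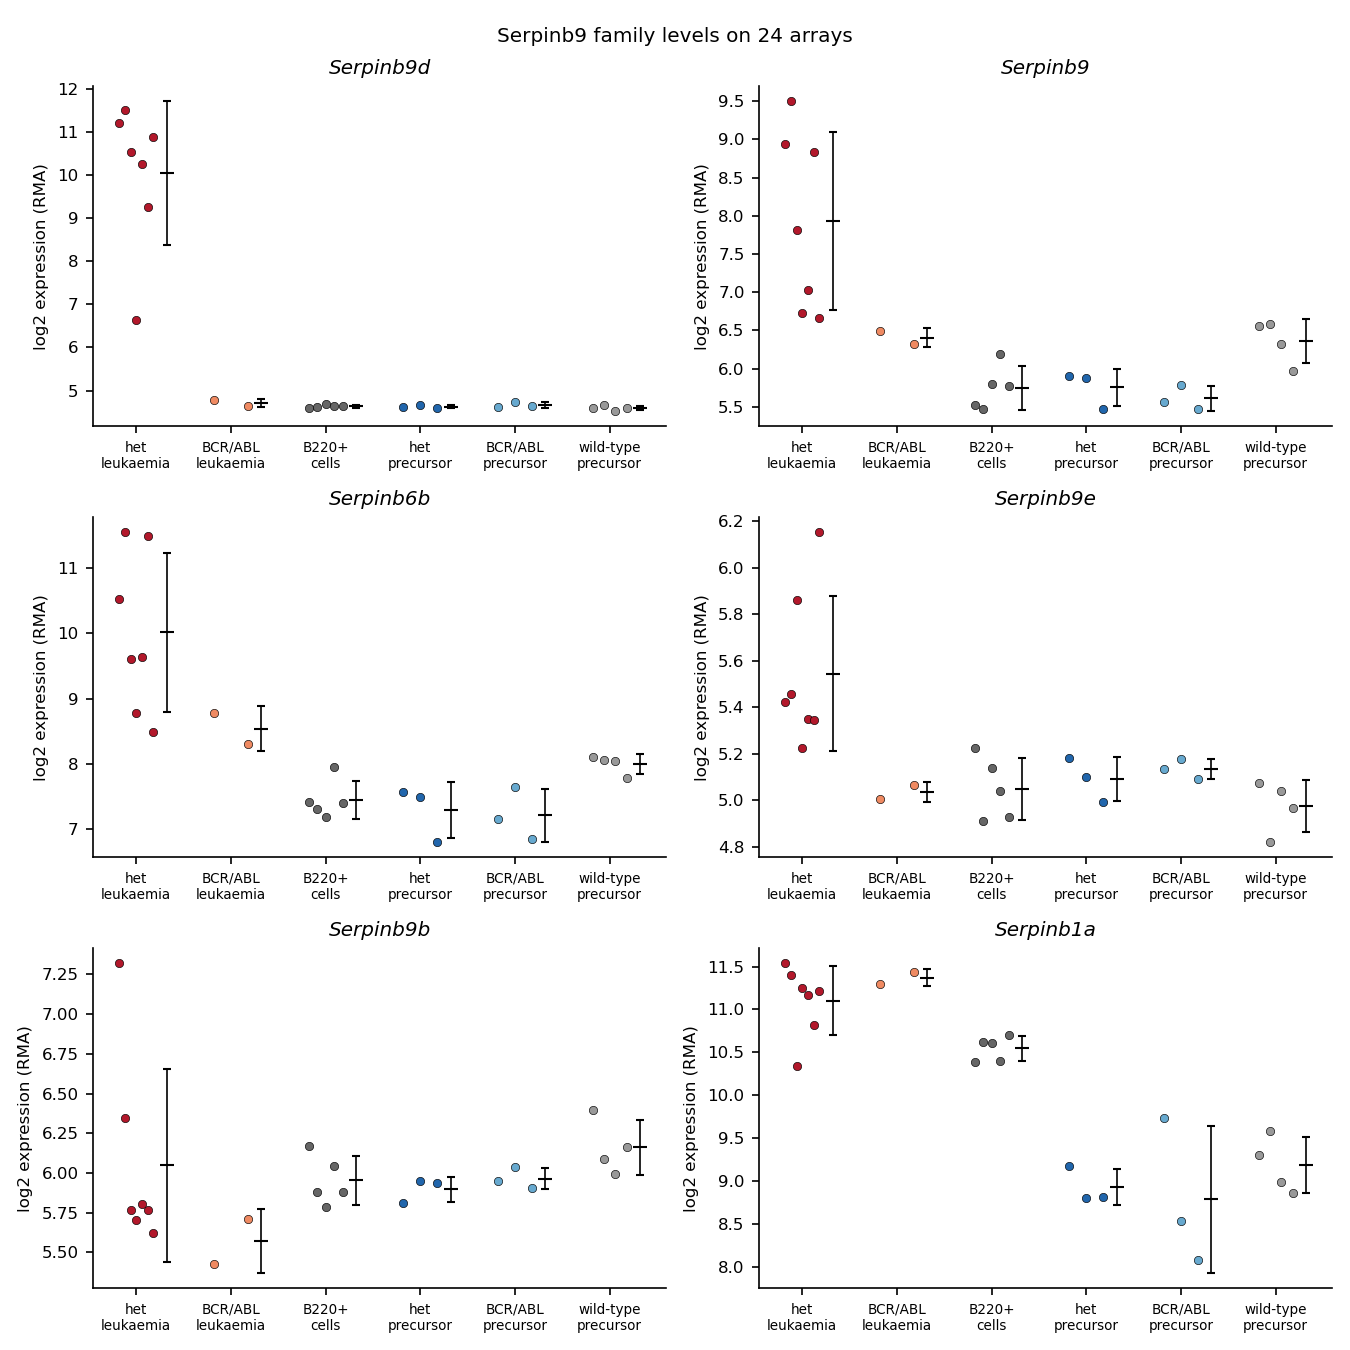
Log2 expression (RMA) of the 6 measured genes, 1 panel each with its own vertical axis, on 24 arrays in 6 groups along the horizontal axis; each point is 1 array, and the bar beside each group is its mean ± SD (n = 7, 2, 5, 3, 3 and 4 from left to right). Serpinb9d lies between 6.63 and 11.50 in heterozygous leukaemias and between 4.53 and 4.78 on all other arrays.

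Serpinb9, the granzyme B inhibitor, was also higher in heterozygous leukaemias than in BCR/ABL leukaemias and B220+ cells. It had 6.66, 7.82 and 9.49 there (lowest, median and highest), 6.49 and 6.32 in BCR/ABL leukaemias and 5.52, 5.47, 5.80, 6.19 and 5.77 in B220+ cells. No heterozygous leukaemia overlapped with either group, although arrays 4 and 7 lay close to the BCR/ABL leukaemias. The log2 difference was 2.18 ± 0.48 (SE) against B220+ cells, or 4.53-fold, and 1.52 ± 0.66 against BCR/ABL leukaemias. The order of group means was heterozygous leukaemias (7.93 ± 1.17, SD), BCR/ABL leukaemias (6.41 ± 0.12), wild-type precursors (6.36 ± 0.28), heterozygous precursors (5.76 ± 0.24), B220+ cells (5.75 ± 0.28) and BCR/ABL precursors (5.61 ± 0.16). BCR/ABL leukaemias and wild-type precursors lay within their spread, as did the last 3 groups.

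Serpinb6b, the granzyme A inhibitor and chromosomal neighbour of Serpinb9, had the same order at the top. Its level was 8.49, 9.64 and 11.54 in heterozygous leukaemias (lowest, median and highest), 8.78 and 8.30 in BCR/ABL leukaemias and 7.41, 7.30, 7.18, 7.95 and 7.39 in B220+ cells. All leukaemias lay above all B220+ arrays, and heterozygous leukaemias 4 and 7 overlapped with the BCR/ABL leukaemias. The log2 difference was 2.56 ± 0.50 (SE) for heterozygous leukaemias against B220+ cells, or 5.91-fold, and 1.47 ± 0.69 against BCR/ABL leukaemias. Group means ran from heterozygous leukaemias (10.01 ± 1.22, SD) over BCR/ABL leukaemias (8.54 ± 0.34) and wild-type precursors (7.998 ± 0.15) to B220+ cells (7.45 ± 0.29), heterozygous precursors (7.29 ± 0.42) and BCR/ABL precursors (7.22 ± 0.41). The last 3 did not differ beyond their spread.

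Serpinb9e, the close copy of Serpinb9d, varied little, its group means spanning 0.57 on the log2 scale. It had 5.23, 5.42 and 6.15 in heterozygous leukaemias (lowest, median and highest), 5.01 and 5.07 in BCR/ABL leukaemias and 5.22, 4.91, 5.14, 5.04 and 4.93 in B220+ cells. The heterozygous leukaemias lay above both other groups, barely so at their lowest array, with a log2 difference of 0.50 ± 0.14 (SE) against B220+ cells and 0.51 ± 0.20 against BCR/ABL leukaemias. Since the genes are so alike, hybridisation of Serpinb9d RNA to probes of its copies was not tested. The 3 probe sets shared by Serpinb9d, Serpinb9e, Serpinb9f and Serpinb9g ranged from 5.41 to 8.49, from 5.35 to 9.33 and from 5.22 to 9.26 in heterozygous leukaemias, lowest on array 4 and highest on array 2 as for Serpinb9d. In BCR/ABL leukaemias the same probe sets had means of 4.99, 4.84 and 4.74, and in B220+ cells of 5.18, 5.09 and 4.98. The highest B220+ array had 5.47, 5.44 and 5.31, above heterozygous leukaemia array 4 in all 3. They name no single gene, so they give no level for Serpinb9f or Serpinb9g.

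Serpinb9b, the granzyme M inhibitor, showed no shift shared by the heterozygous leukaemias. It had 5.62, 5.77 and 7.32 there (lowest, median and highest), 5.43 and 5.71 in BCR/ABL leukaemias and 6.17, 5.88, 5.79, 6.04 and 5.88 in B220+ cells. Array 1 alone reached 7.32, and 5 of the 7 heterozygous leukaemias lay within or below the B220+ range. The log2 difference was 0.095 ± 0.25 (SE) for heterozygous leukaemias against B220+ cells and -0.12 without array 1, and it was 0.48 ± 0.35 against BCR/ABL leukaemias.

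Serpinb1a, the inhibitor of neutrophil proteases, did not separate the leukaemias. It had 10.34, 11.21 and 11.54 in heterozygous leukaemias (lowest, median and highest), 11.30 and 11.44 in BCR/ABL leukaemias and 10.39, 10.63, 10.61, 10.40 and 10.71 in B220+ cells. Both BCR/ABL leukaemias lay above all B220+ cells, as did 6 of 7 heterozygous leukaemias, array 3 being the exception. The log2 difference against B220+ cells was 0.56 ± 0.17 (SE) for heterozygous leukaemias and 0.82 ± 0.25 for BCR/ABL leukaemias, and -0.27 ± 0.24 between the leukaemias. Precursors had less: means were 8.93 ± 0.21 (SD) in heterozygous precursors, 8.79 ± 0.86 in BCR/ABL precursors and 9.19 ± 0.33 in wild-type precursors.

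As a description, 5 of the 6 measured genes lay past limma's threshold (adjusted p under 0.05, Benjamini-Hochberg over all genes) as higher in heterozygous leukaemias than in B220+ cells, Serpinb9b being the exception. Of all genes 12.9% did so as higher, 18.9% as lower and 31.8% in either direction. Groups did not overlap for 4 of the 6 genes, against 8.65% of all genes higher without overlap and 11.4% lower. The median log2 difference was 1.37 over the 6 genes and -0.060 over all genes. Serpinb1a was no longer past the threshold without heterozygous leukaemia 2 or B220+ array 1 or 4, and Serpinb9e without B220+ array 2 or 5. Between BCR/ABL leukaemias and B220+ cells 1 gene lay past it, Serpinb1a, where 9.48% of all genes did as higher, 11.9% as lower and 21.4% in either direction. There Serpinb9, Serpinb6b and Serpinb1a lay above all B220+ cells, where 16.9% of all genes did, and Serpinb9b below, where 26.6% did. The log2 differences were 0.66 ± 0.69 (SE) for Serpinb9, 1.09 ± 0.72 for Serpinb6b, -0.38 ± 0.36 for Serpinb9b, 0.084 ± 0.96 for Serpinb9d and -0.012 ± 0.21 for Serpinb9e. Serpinb1a left the threshold without either BCR/ABL leukaemia or without B220+ array 1, 3 or 4. Between the leukaemias 1 gene lay past it, Serpinb9d, where 0.712% of all genes did as higher, 1.16% as lower and 1.87% in either direction. There 3 genes did not overlap (Serpinb9, Serpinb9d and Serpinb9e) where 4.25% of all genes were higher without overlap and 4.29% lower. Because these comparisons were in view when the genes were chosen, nothing is read from the shares. Each of these comparisons shares a group of arrays with each other one.

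The other measured serpins of the cluster, apart from Serpinb6a, lay near the bottom of the array's range. Their group means ran from 4.47 (Serpinb6e in BCR/ABL leukaemias) to 5.34 (Serpinb9c in heterozygous leukaemias). The arrays may not resolve differences of genes this low. Of 7 other measured clade B serpins of the cluster 1 passed in heterozygous leukaemias against B220+ cells, Serpinb6a, with a log2 difference of 1.56 ± 0.27 (SE) and no overlap. In that comparison 12.9% of all genes passed as higher and 18.9% as lower. Serpinb6c, next to Serpinb6a, differed by -0.11 ± 0.066. Serpinb9c and Serpinb9e, on either side of Serpinb9d, differed by 0.11 ± 0.090 and 0.50 ± 0.14. Against the same B220+ cells, BCR/ABL leukaemias had 0 of the 7 past limma (1 at an unadjusted p under 0.05), and Serpinb6a had 0.93 ± 0.38. Of 11 clade B serpins elsewhere in the genome 0 passed in heterozygous leukaemias (1 at an unadjusted p under 0.05), with Serpinb10 at 1.72 ± 0.90, Serpinb2 at 1.30 ± 0.53 and Serpinb8 at 0.31 ± 0.20. For BCR/ABL leukaemias against B220+ cells 2 of the 11 passed, where 21.4% of all genes did in either direction. Serpinb10 was higher (4.35 ± 1.28) and Serpinb7 lower (-0.24 ± 0.070). Serpinb7 had means of 4.39 in BCR/ABL leukaemias and 4.63 in B220+ cells, both under the 5th percentile of gene values (4.80). Between the leukaemias 0 of 7 and 0 of 11 passed limma (0 and 1 at an unadjusted p under 0.05), with Serpinb6a at 0.63 ± 0.37 and Serpinb10 at -2.63 ± 1.23. Of all genes 1.87% passed there in either direction.

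**Figure D2:**
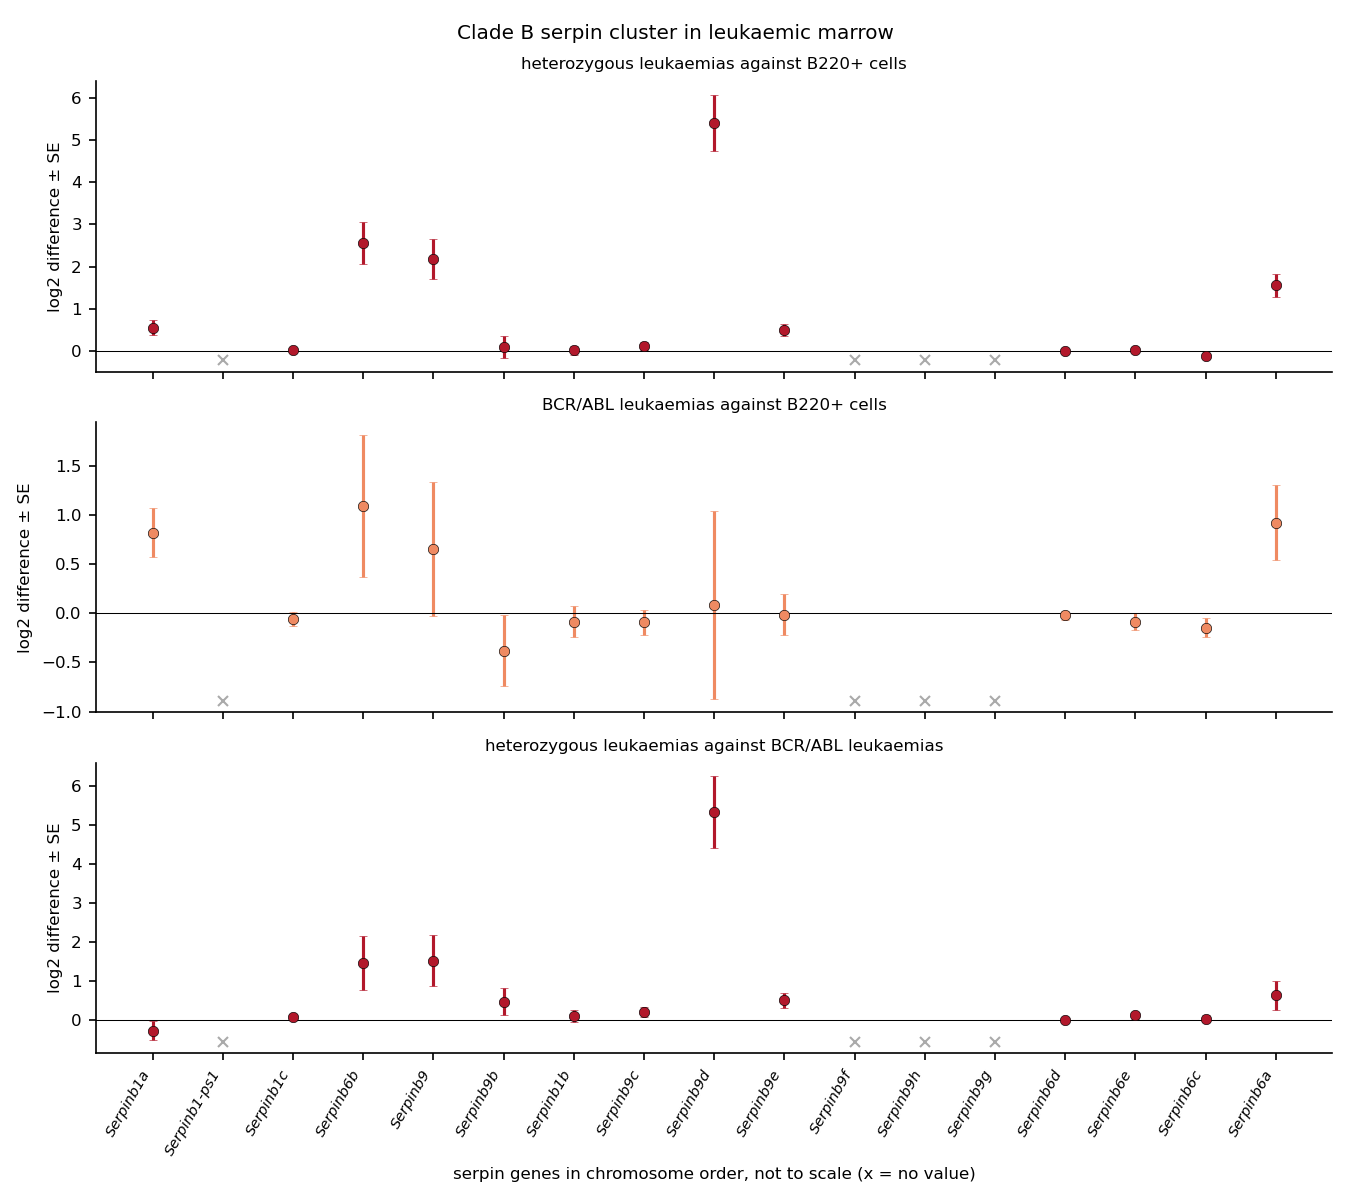
Log2 difference ± SE (limma) of the serpin genes of the chromosome 13 cluster, in chromosome order from left to right and not to scale, for heterozygous leukaemias against B220+ cells (top), BCR/ABL leukaemias against B220+ cells (middle) and heterozygous against BCR/ABL leukaemias (bottom); each panel has its own vertical axis, and crosses at the lower edge mark 4 of the 17 genes with no value. In the top panel Serpinb6b (2.56), Serpinb9 (2.18), Serpinb9d (5.40) and Serpinb6a (1.56) stand highest. Serpinb1a (0.56) and Serpinb9e (0.50) come next. The other genes lie close to 0, most of them with levels near the bottom of the array's range.

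No granzyme or perforin gene passed as higher in leukaemia, although Gzmb, Gzmk and Gzma were high on some heterozygous leukaemia arrays. The neutrophil proteases were higher in BCR/ABL leukaemias. Of 11 measured granzyme and perforin genes 1 passed in heterozygous leukaemias against B220+ cells, and it was lower: Gzmm, the granzyme M gene, by -0.31 ± 0.054 (SE, log2). Gzmb, which encodes granzyme B, differed by 1.25 ± 0.67, Gzmk by 0.89 ± 0.57 and Gzma by -0.44 ± 0.49, and none of these passed. Gzmb ranged from 5.66 to 9.84 (median 6.35) in heterozygous leukaemias and from 5.56 to 6.16 in B220+ cells. For Gzmk the ranges were 5.78 to 9.78 (median 6.36) and 5.78 to 6.09, and for Gzma 5.84 to 9.14 (median 6.33) and 6.44 to 7.98. Gzmc, Gzmd, Gzme, Gzmf, Gzmg and Gzmn had group means from 4.74 (Gzmn in BCR/ABL leukaemias) to 5.25 (Gzmf in B220+ cells), near the bottom of the array's range. Against B220+ cells 12.9% of all genes passed as higher and 18.9% as lower in heterozygous leukaemias, and 9.48% and 11.9% in BCR/ABL leukaemias. Gzmm alone passed in BCR/ABL leukaemias, again lower (-0.26 ± 0.077), beside Gzma at -0.98 ± 0.70, Gzmb at 0.62 ± 0.95 and Gzmk at 0.57 ± 0.81. Between the leukaemias 0 of 11 passed limma (0 at an unadjusted p under 0.05), with Gzmb at 0.64 ± 0.91, Gzma at 0.54 ± 0.67 and Gzmk at 0.32 ± 0.77. The neutrophil serine proteases were higher in all 4 measured genes in BCR/ABL leukaemias against B220+ cells. The genes of the Serpinb1a targets, Ctsg (cathepsin G), Prtn3 (proteinase 3) and Elane (elastase), had 5.67 ± 0.68, 4.71 ± 0.46 and 4.11 ± 0.65. In heterozygous leukaemias 0 of the 4 passed limma (1 at an unadjusted p under 0.05): Ctsg had 0.89 ± 0.48, Prss57 0.76 ± 0.47 and Prtn3 0.72 ± 0.32. Between the leukaemias 3 of the 4 were lower in heterozygous leukaemias, Ctsg by -4.78 ± 0.65, Prtn3 by -3.98 ± 0.44 and Elane by -3.95 ± 0.62. Of all genes 0.712% passed as higher and 1.16% as lower between the leukaemias.

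Of 9 genes that load or release cytotoxic granules, 3 were higher and 1 lower past limma in heterozygous leukaemias against B220+ cells. Rab27a, which tethers granules at the membrane, had 0.96 ± 0.22 (SE, log2), the lysosomal membrane gene Lamp1 0.53 ± 0.11 and Stxbp2, a partner of syntaxin in granule fusion, -0.52 ± 0.096. Against B220+ cells 3 of the 9 were higher in BCR/ABL leukaemias and 0 lower, and Rab27a (1.85 ± 0.31) and Lyst (0.84 ± 0.19) were among them. Stx11 had 0.97 ± 0.46 and did not pass. Over all genes 31.8% passed in either direction in heterozygous and 21.4% in BCR/ABL leukaemias against B220+ cells. Between the leukaemias 1 of the 9 passed, Ctsc, whose product activates granzyme precursors, at 1.02 ± 0.20 higher in heterozygous leukaemias. In that comparison 0.712% of all genes passed as higher and 1.16% as lower. Rab27a had -0.89 ± 0.30 and Stx11 -0.83 ± 0.44 there and did not pass.

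Markers of other cell types differed between the same groups. In heterozygous leukaemias against B220+ cells 8 of 9 monocyte and macrophage markers, 5 of 5 megakaryocyte markers and 7 of 8 stroma and endothelium markers were higher past limma, and 6 of 9 B lineage markers lower. The other stroma and endothelium marker was lower. Over all genes 12.9% passed as higher and 18.9% as lower. NK cell markers did not shift together: 1 of 10 was higher and 1 lower, and their mean per array was 6.64 to 9.14 in heterozygous leukaemias and 6.77 to 7.84 in B220+ cells. T cell markers had 3 of 8 higher and 1 lower, and dendritic markers 1 of 8 higher. The mean of the monocyte and macrophage markers lay at 8.25 to 10.49 in heterozygous leukaemias, at 8.51 and 9.82 in BCR/ABL leukaemias and at 6.52 to 6.91 in B220+ cells. Neutrophil markers lay at 7.14 to 9.91 in heterozygous leukaemias, at 11.54 and 12.13 in BCR/ABL leukaemias and at 7.11 to 10.55 in B220+ cells. Their part in the differences between groups was not tested. No sort is named for the leukaemic marrow, while its controls are B220+ B cells. Leukaemia and cell preparation therefore cannot be told apart in the comparisons with B220+ cells.

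Across the 7 heterozygous leukaemias the level of Serpinb9d was set against 5 measures: the mean of the B lineage, NK cell, monocyte and macrophage, and neutrophil markers, and Pax5. None passed after Benjamini-Hochberg adjustment over the 5 (exact permutation tests, two-sided, smallest adjusted p = 0.963 for Pearson's r and 0.441 for Spearman's rho). Pearson's r was 0.51 with NK cell markers (rho = 0.71, exact permutation p = 0.234 and 0.0881, r = 0.61 without the 2 arrays farthest from the median). It was 0.19 with B lineage markers (rho = 0.036, exact permutation p = 0.781 and 0.963), -0.023 with monocyte and macrophage markers (rho = 0.32, p = 0.963 and 0.498), -0.27 with neutrophil markers (rho = -0.14, p = 0.589 and 0.782) and -0.25 with Pax5 (rho = -0.036, p = 0.596 and 0.963). Without the 2 farthest arrays the last 3 became 0.30, 0.83 and 0.27.

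Among the genes themselves, Serpinb9 and Serpinb6b varied together within the heterozygous leukaemias. Serpinb9 had 8.94, 9.49, 7.82, 6.73, 7.03, 8.84 and 6.66 on arrays 1 to 7, and Serpinb6b had 10.53, 11.54, 9.61, 8.78, 9.64, 11.50 and 8.49. Arrays 1, 2 and 6 were the highest in both and arrays 4 and 7 the lowest or next to lowest. Pearson's r was 0.942 (exact permutation p = 0.00298, adjusted p = 0.0446 over the 15 pairs of measured genes) and Spearman's rho 0.929 (exact permutation p = 0.00675, adjusted p = 0.101), and r was 0.890 without the 2 arrays farthest from the median (exact permutation p = 0.0583), so the relation did not pass without them. The 15 pairs were chosen after the levels had been seen. The other 14 pairs did not pass, and Serpinb9d against Serpinb9 had r = 0.472 (rho = 0.536, exact permutation p = 0.305 and 0.236).

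**Figure D3:**
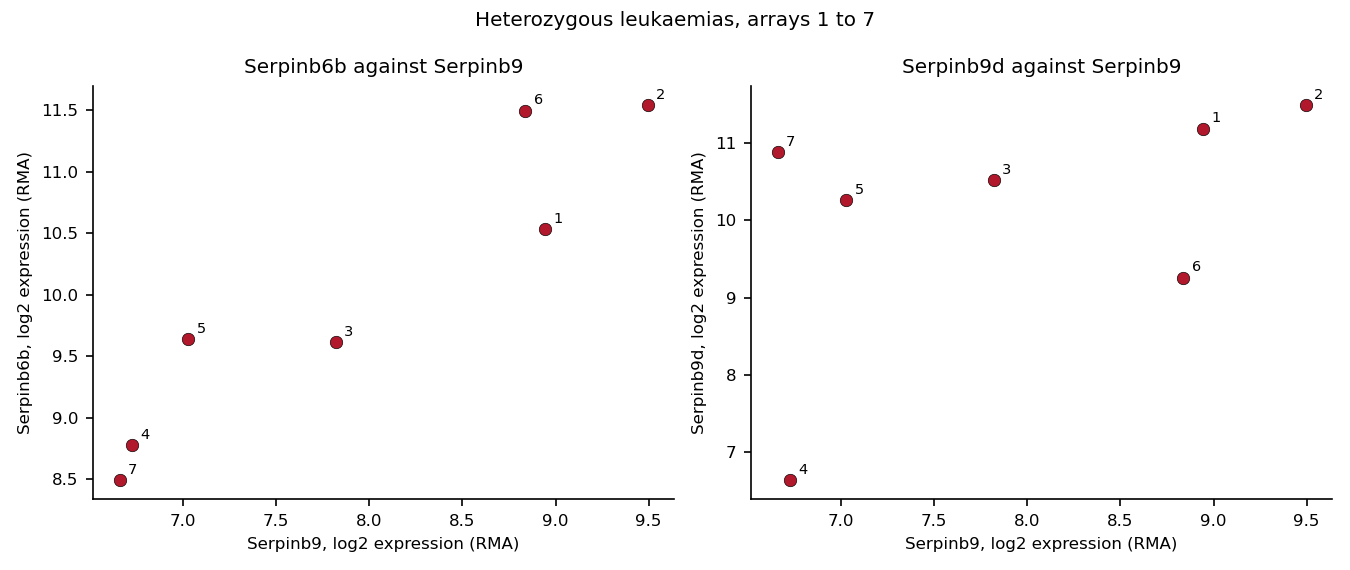
Serpinb6b (left) and Serpinb9d (right) against Serpinb9, all in log2 expression (RMA), in the 7 heterozygous leukaemias; each point is 1 array with its number. Serpinb6b follows Serpinb9 (r = 0.942), and array 4 stands low for Serpinb9d at 6.63.

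Over all 24 arrays the same pair was the closest, as a description of arrays that share their groups: Serpinb6b was the gene most like Serpinb9 of all named genes, with Pearson's r = 0.974. Next for Serpinb9 came Ifi205, an interferon-inducible gene (r = 0.923), and Cd3g, a chain of the T cell receptor complex (r = 0.919). For Serpinb6b, Lacc1 (r = 0.962), a purine enzyme gene of macrophages, and Sh2d1b1, an adaptor of NK cell receptors (r = 0.940), followed Serpinb9. For Serpinb9d they were Ctla4, an inhibitory receptor of T cells (r = 0.948), Igf2bp3, an RNA-binding protein of fetal tissue (r = 0.930), and Rgl1, an exchange factor for Ral (r = 0.929). For Serpinb1a they were the phosphatase gene G6pc3 (r = 0.923), the sorting protein gene Pacs1 (r = 0.921) and Hexa, a lysosomal hexosaminidase (r = 0.919). Serpinb9b and Serpinb9e were not ranked, since their group means spanned less than 1 log2 unit.

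The precursor comparisons ask how precursors differed between the genotypes, and the genes were not chosen from them. They cannot show what the oncogene did, since sex and NK cell markers differed between BCR/ABL and wild-type precursors as well, as given below. Serpinb9 and Serpinb6b were lower in BCR/ABL precursors than in wild-type precursors. Serpinb9 had 5.57, 5.79 and 5.47 in BCR/ABL precursors and 6.55, 6.59, 6.32 and 5.97 in wild-type precursors, a log2 difference of -0.75 ± 0.16 (SE, limma adjusted p = 0.0121) with no overlap. Serpinb6b had 7.15, 7.65 and 6.84 in BCR/ABL precursors and 8.11, 8.06, 8.04 and 7.78 in wild-type precursors, a log2 difference of -0.78 ± 0.22 (limma adjusted p = 0.0279), again with no overlap. Of all genes 22.9% were lower and 19.3% higher without overlap. These were 2 of the 6 measured genes called lower, where 15.5% of all genes were called lower, 11.6% higher and 27.1% in either direction. The median log2 difference was -0.30 over the 6 genes and 0.037 over all genes. Neither call was firm: that of Serpinb9 ended without BCR/ABL precursor 3 (-0.68, limma adjusted p = 0.0505) and with all 24 arrays in 1 fit (limma adjusted p = 0.315). That of Serpinb6b ended without BCR/ABL precursor 1 or 3 (-0.75 and -0.60, limma adjusted p = 0.0548 and 0.106) or wild-type precursor 1, 2 or 3 (limma adjusted p = 0.0681, 0.0693 and 0.0686). It also ended with all 24 arrays in 1 fit (0.326), after quantile normalization again (0.0779) and after cyclic loess (0.112).

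The other genes did not pass in BCR/ABL precursors. Serpinb9b had 5.95, 6.04 and 5.91 in BCR/ABL precursors and 6.40, 6.09, 6.00 and 6.16 in wild-type precursors (-0.20 ± 0.092, limma adjusted p = 0.129), and Serpinb9b passed after quantile normalization again (limma adjusted p = 0.0370) and cyclic loess (0.0408). Serpinb9e had 0.16 ± 0.073 (limma adjusted p = 0.128) with no overlap and Serpinb9d 0.065 ± 0.055 (limma adjusted p = 0.378). Serpinb1a had 9.74, 8.54 and 8.08 in BCR/ABL precursors and 9.31, 9.59, 8.99 and 8.87 in wild-type precursors, a difference of -0.40 ± 0.34 (limma adjusted p = 0.379). BCR/ABL precursor 1 stood above all wild-type arrays for Serpinb1a, and without it the difference was -0.88 (limma adjusted p = 0.0187).

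In heterozygous precursors the same pair of genes lay lower, without passing. Serpinb9 had 5.91, 5.88 and 5.48 in heterozygous precursors, against the wild-type values above (-0.61 ± 0.16, limma adjusted p = 0.0686), and -0.73 without wild-type precursor 4 (limma adjusted p = 0.0404). Serpinb6b had 7.58, 7.50 and 6.81 (-0.70 ± 0.22, limma adjusted p = 0.0972) and Serpinb9b 5.81, 5.95 and 5.94 (-0.26 ± 0.092, limma adjusted p = 0.131). For these 3 genes the groups did not overlap, where 12% of all genes were lower and 12.3% higher without overlap. By limma 0 of 6 genes passed (3 at an unadjusted p under 0.05), against 1.23% of all genes higher, 2.94% lower and 4.17% in either direction. With array weights Serpinb9, Serpinb6b and Serpinb9b passed (limma adjusted p = 0.0126, 0.0253 and 0.0249). Serpinb9d, Serpinb9e and Serpinb1a had differences of 0.026 ± 0.055, 0.12 ± 0.073 and -0.25 ± 0.34.

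Between heterozygous and BCR/ABL precursors 0 of 6 genes passed limma (0 at an unadjusted p under 0.05), where 0.015% of all genes passed as higher, 0.01% as lower and 0.0251% in either direction. The log2 differences were 0.14 ± 0.17 (SE) for Serpinb9, 0.078 ± 0.23 for Serpinb6b, -0.066 ± 0.098 for Serpinb9b, -0.039 ± 0.059 for Serpinb9d, -0.041 ± 0.079 for Serpinb9e and 0.15 ± 0.36 for Serpinb1a. The signs for Serpinb6b, Serpinb9d, Serpinb9e and Serpinb1a turned under another scaling. All 6 genes overlapped between these groups, where 7.05% of all genes were higher and 9.41% lower without overlap.

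Markers of NK cells were also lower in the same precursor samples as Serpinb9 and Serpinb6b. The mean of 10 NK cell markers was 7.42, 7.72 and 6.74 in heterozygous precursors, 6.79, 7.53 and 6.51 in BCR/ABL precursors and 8.89, 8.50, 8.31 and 8.05 in wild-type precursors. No array with the oncogene reached the lowest wild-type array. By limma 9 of the 10 markers fell in BCR/ABL precursors against wild-type precursors and 5 of 10 in heterozygous precursors. Over all genes 15.5% were called lower in BCR/ABL precursors and 2.94% in heterozygous precursors. Ncr1, an activating receptor that defines NK cells, had 6.25 to 7.76 in BCR/ABL precursors, 7.24 to 7.84 in heterozygous precursors and 9.13 to 10.08 in wild-type precursors. Its log2 difference was -2.69 ± 0.35 (SE, limma adjusted p = 0.00303) in BCR/ABL precursors and -1.90 ± 0.35 (limma adjusted p = 0.0261) in heterozygous precursors. Of 8 dendritic cell markers 4 fell in BCR/ABL precursors and 2 in heterozygous precursors, while 1 of 9 B lineage markers rose and 1 fell in BCR/ABL precursors. Their part in the levels of Serpinb9 and Serpinb6b was not tested. Xist separated the BCR/ABL precursors (6.24 to 6.49) from the wild-type precursors (12.49 to 12.70), so genotype and sex cannot be told apart in that comparison.

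**Figure D4:**
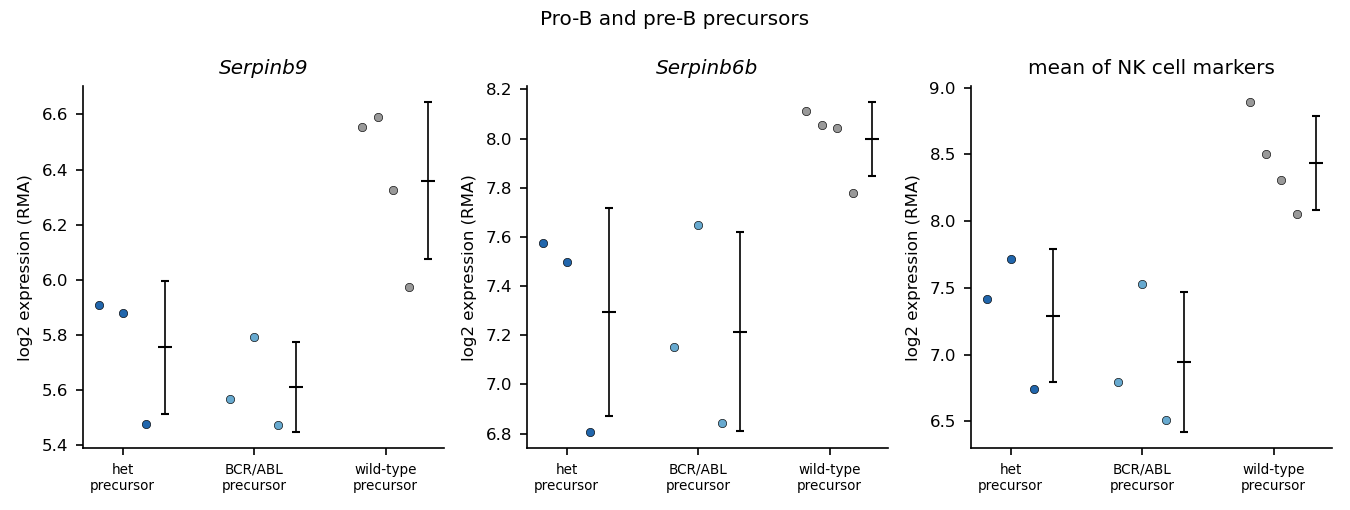
Log2 expression (RMA) of Serpinb9 (left), Serpinb6b (middle) and the mean of 10 NK cell markers (right) in heterozygous (n = 3), BCR/ABL (n = 3) and wild-type precursors (n = 4); points are arrays and bars the mean ± SD. In each panel every array with the oncogene lies below the lowest wild-type array.

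A few granzyme and perforin genes were lower in BCR/ABL precursors, while the median log2 difference of the 11 was 0.048, against 0.037 over all genes. In the precursors Gzmc, Gzmd, Gzme, Gzmf, Gzmg and Gzmn lay near the bottom of the array's range. Their group means ran from 4.79 (Gzmn in wild-type precursors) to 5.42 (Gzmf in BCR/ABL precursors). They make up most of the list and largely set its median, which says little of the other genes. In BCR/ABL precursors 3 of 11 fell against wild-type precursors and 0 rose: Gzma by 2.15 ± 0.40 on the log2 scale (limma adjusted p = 0.00699), the perforin gene Prf1 by 0.82 ± 0.22 (limma adjusted p = 0.0231) and Gzmk by 0.42 ± 0.12 (limma adjusted p = 0.0271). In that comparison 15.5% of all genes were called lower, 11.6% higher and 27.1% in either direction. For heterozygous against wild-type precursors it was 4.17% in either direction. Gzmb, whose product Serpinb9 inhibits, had -0.31 ± 0.26 in BCR/ABL precursors and did not pass. In heterozygous precursors 0 of 11 passed limma (3 at an unadjusted p under 0.05; list median -0.0032), with Gzma at -1.29 ± 0.40 (limma adjusted p = 0.0963) and Prf1 at -0.57 ± 0.22 (limma adjusted p = 0.157). Of 9 granule genes, Ctsc fell by 0.75 ± 0.13 (limma adjusted p = 0.00614) and Srgn, the proteoglycan that packs granzymes, rose by 0.23 ± 0.070 (limma adjusted p = 0.0397) in BCR/ABL precursors, and 0 passed in heterozygous precursors (2 at an unadjusted p under 0.05). By limma 0 of 7 other serpins of the cluster and 0 of 11 elsewhere passed in BCR/ABL precursors (0 and 2 at an unadjusted p under 0.05) or in heterozygous precursors (0 and 0 at an unadjusted p under 0.05). Neutrophil serine proteases had 0 of 4 past limma in each of the 3 precursor comparisons (0 at an unadjusted p under 0.05 in each).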

How the data were processed

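Total RNA (Trizol, per the labels' protocols) was hybridised to 1 Affymetrix array of the mouse gene type per sample. The deposited values are log2 expression per probe set after RMA by the authors (tools RMA and oligo, per the submitters' processing notes); versions, genome build and joint normalization are not stated in the files and labels used. Of 35556 probe sets, 21789 had 1 symbol in the platform annotation, 1621 several and 12146 none; 21698 gene identifiers matched RefSeq (GRCm38.p6), used for symbols and gene order. Of 19938 genes, 999 had several probe sets. Members, 15 gene lists (122 of 130 genes measured), tests and alternatives were chosen with earlier results of these data known.

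Fits used limma 3.58.1 (R 4.3.3; linear model with eBayes moderation by its default settings, two-sided, Benjamini-Hochberg over all genes, threshold 0.05) on 14 leukaemia and B220+ arrays or 10 precursor arrays, and were tested on simulated data. Named genes were the members, Pax5, the 3 genes most correlated with each member whose group means spanned over 1 log2 unit and, from each pathway list, those past limma in precursors and the 3 largest differences per leukaemia comparison; Gzmm, Serpinb7, Ncr1 and Xist were named after their values were seen. The number of arrays limits the precision. Same-numbered heterozygous and BCR/ABL precursors deviated together from their group means in all 3 pairs (correlations 0.208 to 0.250). Different numbers gave -0.346 to 0.130 there. Deviations within groups of 3 are not independent, and different numbers of BCR/ABL and wild-type precursors reached 0.441. Whether the numbers pair is thus not settled. The labels give no pairing, and the main fits used none. Alternatives were other scalings, array weights, an intensity trend, a dim filter, means over probe sets, all arrays in 1 fit, each array left out and a replicate block.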

Additional observations from a re-analysis of the deposited data

Results flagged for a closer look

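Serpinb9b stood at 7.32 on heterozygous leukaemia array 1, far above the other 6 arrays of its group (5.62 to 6.35). This was 1 gap of 18 groups examined, and chance gives about 1 in 20.

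For some genes every leukaemia array lay on one side of the mean of its controls and every precursor array on the other side; these differences between stages were not tested, and the controls are B220+ cells at one stage and precursors at the other. For the heterozygous groups against wild type, Serpinb9 was higher in leukaemia and lower in precursors, 2.78 apart on the log2 scale, and Serpinb6b 3.27 apart. For the BCR/ABL groups with both Pax5 copies against wild type, Serpinb9 was 1.40 and Serpinb6b 1.88 apart. For heterozygous groups against those with both copies, Serpinb9d was 5.36 and Serpinb9b 0.54 apart. For Serpinb9d the difference lay in the leukaemia stage: in precursors it was -0.039 ± 0.059 (SE), within its error, and its sign turned under other scalings. For Serpinb9b neither stage showed a difference past limma. It was 0.48 ± 0.35 between the leukaemias, with overlap and as low as 0.26 with 1 array left out. Between the precursors it was -0.066 ± 0.098, within its error. The share of all genes with such opposite sides was not counted.

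The 3 probe sets shared by Serpinb9d, Serpinb9e, Serpinb9f and Serpinb9g, which enter no comparison, had means of 6.96, 7.56 and 7.32 in heterozygous leukaemias, against 5.18, 5.09 and 4.98 in B220+ cells.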

How the results depend on the processing

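In the precursor comparisons, of 150 log2 differences of the 6 genes under other settings 131 kept direction and call, 10 turned, 4 lost and 5 gained a call; of 120 with 1 array left out 107 kept both, 5 turned, 6 lost and 2 gained a call. In the leukaemia comparisons, of 150 under other settings 135 kept direction and side of the threshold, 6 turned and 9 left the threshold; of 168 with 1 array left out 153 kept both, 4 turned and 11 left it. The turned leukaemia values were all of genes outside the threshold (Serpinb9b, Serpinb9d, Serpinb9e and Serpinb1a). In precursors they were the following. For Serpinb9d in heterozygous against wild-type precursors it was -4.1e-07 after quantile normalization again and -0.036 after cyclic loess, and in BCR/ABL against wild-type precursors -0.060 after cyclic loess. Between heterozygous and BCR/ABL precursors Serpinb9d became 0.012 with median centring and 0.024 with cyclic loess. Serpinb9e became 0.0099, 2.0e-05 and 0.018 with median centring, cyclic loess and array weights, and -0.087 to 0.0088 with 1 array left out. Serpinb6b became -0.053 and Serpinb1a -0.0080 with cyclic loess, and with 1 array left out they ranged from -0.11 to 0.32 and from -0.21 to 0.62. Relations of Serpinb9d with macrophage markers, neutrophil markers and Pax5 turned to 0.30, 0.83 and 0.27 without the 2 farthest arrays.

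Counts of the 6 genes called moved as follows. In heterozygous leukaemias against B220+ cells 5 became 3 with median centring and 2 with the dim filter. That filter keeps genes whose mean over all arrays is above that of the median gene, so only Serpinb6b and Serpinb1a stayed in. Both were called there. The lower counts with the dim filter in the comparisons below come from leaving out Serpinb9d and Serpinb9. In BCR/ABL leukaemias against B220+ cells 1 became 0 with array weights and with all 24 arrays in 1 fit, and 0 to 1 with 1 array left out. Between the leukaemias 1 became 0 with array weights and the dim filter, and 0 to 1 with 1 array left out. In heterozygous against wild-type precursors 0 became 3 with array weights and 0 to 1 with 1 array left out. In BCR/ABL against wild-type precursors 2 became 1 with the dim filter and 0 with all arrays in 1 fit, and 0 to 2 with 1 array left out. Beyond named cases, the cause was not tested. With the replicate block, 0 genes were called in BCR/ABL leukaemias against B220+ cells and 0 between the leukaemias, and 4, 0, 2 and 0 in the other comparisons in the order above, the last being between oncogene-bearing precursors. The block fit kept only arrays whose number occurs in both compared groups. With BCR/ABL leukaemias that left 2 arrays per group, too few to read a dependence on pairing from the missing calls.

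Calls over all genes depended on the setting. Against B220+ cells, 6336 became 12413 (16.4% higher, against 40.5%) in heterozygous and 4260 became 8809 (19.1%, against 44.4%) in BCR/ABL leukaemias with median centring, which moved the median of all genes to -0.20 and -0.21; cyclic loess gave 54.1% and 56.5% higher. Array weights gave 2281 in BCR/ABL leukaemias, 83 (against 373) between leukaemias, 5099 (against 832) in heterozygous precursors and 79 (against 5) between oncogene-bearing precursors. All arrays in 1 fit gave 1038, 275 and 2 in the last 3 comparisons, and the dim filter 3 in the last. In BCR/ABL against wild-type precursors 5396 became 3486 with cyclic loess and 3368 with the dim filter, and the share higher of those called was 42.9%, against 54.6% after quantile normalization again and 31.6% with median centring; in heterozygous precursors it was 29.4%, against 53.3% after quantile normalization again. The block left 0 calls over all genes in 4 comparisons, 5751 for heterozygous leukaemias and B220+ cells and 3790 for BCR/ABL against wild-type precursors.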
